A study of Homo sapiens with 14 samples.

Results

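The 2-oxoglutarate dioxygenases other than the TET enzymes were followed as a set of 44 named genes in 2 leukaemia cell lines. The set was listed by gene symbol with no threshold on a measured value, but with earlier results of these data known. It held 17 JmjC histone demethylases, 4 JmjC hydroxylases and related proteins, 9 genes of the AlkB family with FTO, 3 HIF prolyl hydroxylases (EGLN1, EGLN2, EGLN3), 6 prolyl and lysyl hydroxylases of the collagen type, and a remainder of 5 (OGFOD1, OGFOD2, ASPH, PHYH, TMLHE). All 44 symbols were among the 26171 entries of the K562 table and among the 19196 entries of the SIGM5 table.

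These enzymes couple the oxidation of their substrate to the oxidative decarboxylation of 2-oxoglutarate to succinate and carbon dioxide, at an iron atom in the active site, with molecular oxygen as the other substrate. Ascorbate keeps the iron reduced in many of them, collagen prolyl hydroxylase being the classic case. The TET enzymes, which oxidise methylcytosine in DNA, belong to the same superfamily, so a compound aimed at TET enzymes raises the question of what the other members do. JmjC demethylases remove methyl groups from histone lysines, AlkB proteins remove alkyl groups from DNA, RNA or protein, and EGLN proteins hydroxylate the α subunit of the hypoxia-inducible factor (HIF), which marks it for degradation through VHL. Messenger RNA was measured here, not enzyme activity or protein.

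Polyadenylated RNA was sequenced in 14 libraries that form 7 groups of 2, all after 24 h. K562, an erythroleukaemia line that carries the BCR-ABL1 fusion, was used as an isogenic pair, K18, labelled TET2-/-, and K01, its TET2+/+ counterpart by the series text. K18 received DMSO, and K01 received 12.5 µM TETi76 with 100 µM ascorbate, 12.5 µM TETi76, 100 µM ascorbate or DMSO. SIGM5, a myeloid leukaemia line, received 12.5 µM TETi76 or DMSO. TETi76 is described in the series as a TET dioxygenase inhibitor and its structure is not given in the sources used here. Each genotype was 1 line, so TET2 status and other differences between K18 and K01 cannot be told apart. The labels number the libraries of a group without saying whether they were separate cultures, so the p-values measure the spread between libraries, which may be technical.

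K562 values were deposited as FPKM (fragments per kilobase of transcript, scaled to library size), and the depth of those libraries, estimated from the smallest steps in the values, was 4.88 to 9.09 M reads. SIGM5 values were raw counts, with totals of 18893636 to 23639198. Pearson correlations between the libraries of a group, over all genes tested on the log2 scale, ran from 0.9754 to 0.9934. TET2 mRNA was 3.31 and 2.95 FPKM in K18, against 1.99 and 2.40 FPKM in K01, both with DMSO, so the message was still present in K18 and its level does not check the genotype label (log2 difference 0.37 ± 0.22 SE, limma adjusted p = 0.314). All 10 erythroid markers reached 1 FPKM in at least 1 library of every K562 group. All 12 myelomonocytic markers reached 1 CPM (counts scaled to library size) in at least 1 library of both SIGM5 groups. Among markers of other cells in K562, the summed FPKM of 8 stromal and epithelial genes was 899 and 926 with TETi76 and 401 and 440 with DMSO, nearly all of it from KRT8 and KRT18, with the endothelial gene CDH5 under 0.1 FPKM, and the part of this shift in the results was not tested.

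In untreated K01 cells the members spanned the range of ordinary messages. Their median level was 9.77 FPKM, beside 9.38 FPKM for all genes tested. EGLN2 was the most abundant at 59.2 and 54.6 FPKM, followed by the H3K4 demethylase KDM5C at 39.9 and 37.3 FPKM, without overlap between them. The collagen lysyl hydroxylase PLOD1 (36.7 and 31.8 FPKM) and the ribosomal protein hydroxylase OGFOD1 (34.5 and 32.9 FPKM) overlapped and could not be ordered. At the other end, 3 members were below a mean of 1 FPKM: KDM4D, the lysyl hydroxylase PLOD2 and P4HTM, the transmembrane prolyl hydroxylase. Between these ends 20 members lay at 1 to 10 FPKM, 9 at 10 to 20 FPKM and 12 at 20 FPKM or more. Summed over all 44, the level was 595 ± 19.1 FPKM with TETi76 and 600 ± 7.64 FPKM with DMSO (SD, n = 2 each), so the total did not differ beyond the spread while single members went up and down.

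**Figure D1:**
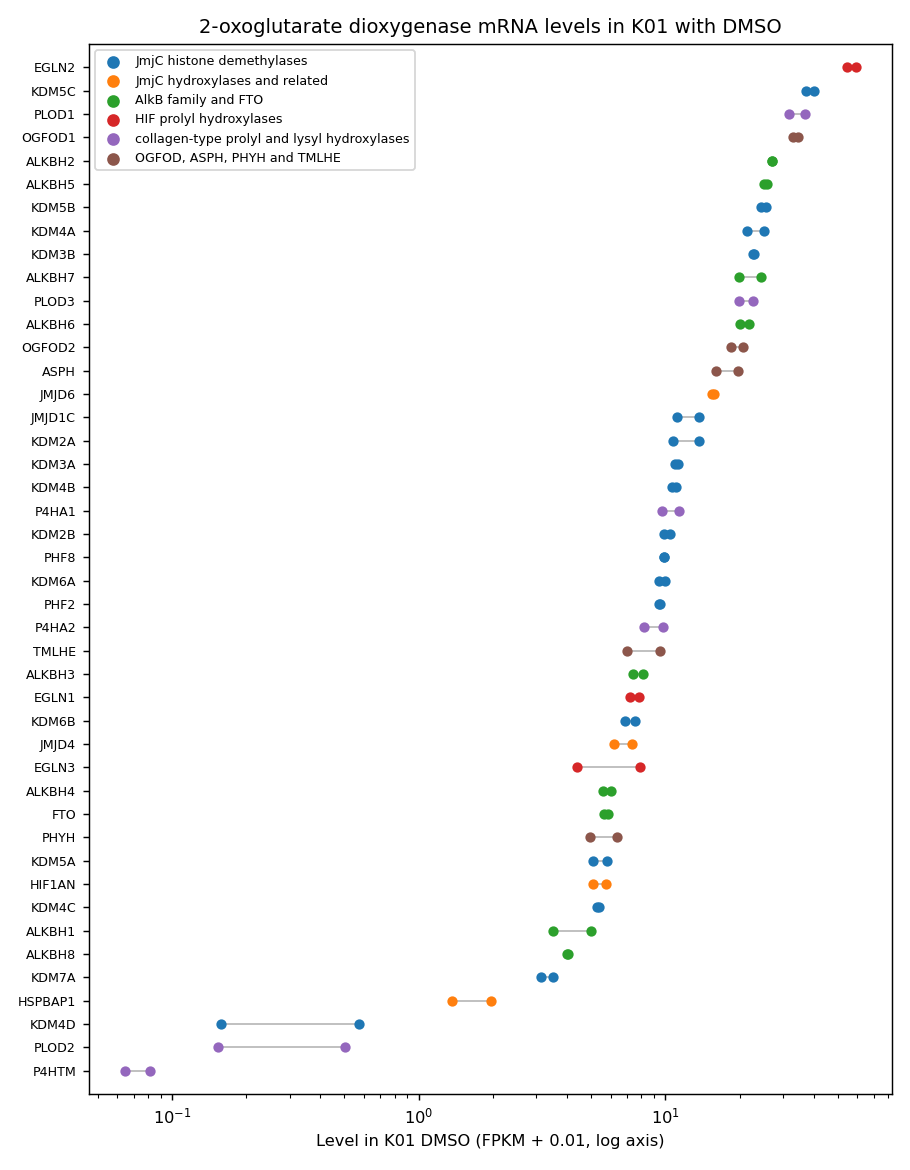
Level of each of the 44 members in the 2 K01 DMSO libraries, as FPKM + 0.01 on a log axis, ordered by mean and coloured by family; each point is 1 library. EGLN2 is the highest at 59.2 and 54.6 FPKM and P4HTM the lowest.

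Which members changed with the compound was asked first in K01. A gene was called when its adjusted p (limma on log2(FPKM + 1), Benjamini-Hochberg over 12540 genes) was under 0.05, and 42 members had enough signal to be tested, PLOD2 and P4HTM not. With TETi76 against DMSO, 10 of 42 members were called, 6 higher and 4 lower. That is 23.8%, beside 23.3% of all genes tested, with 9.6% of all genes higher and 13.7% lower, so the set as a whole was changed about as often as other genes. The members that rose were the protein hydroxylase JMJD6, the H3K9 demethylase KDM3A, the H3K36 demethylase KDM2A, the collagen prolyl hydroxylase subunits P4HA1 and P4HA2, and the aspartyl hydroxylase ASPH. Those that fell were the H3K9 and H3K36 demethylase KDM4A, EGLN2, the lysyl hydroxylase PLOD3 and OGFOD2. The median log2 change over all 42 members was -0.03, beside -0.01 for all genes. The count fell with any 1 library of these groups left out, and so did that over all genes. JMJD6, KDM2A, KDM3A and KDM4A were called under all 10 alternatives. In bulk RNA, fewer cells that express a gene and less of its RNA per cell cannot be told apart, here and below.

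The same compound was also compared with ascorbate in both arms, in 4 libraries that are not used in the first comparison. With TETi76 and ascorbate against ascorbate, 12 of 42 members were called, 8 higher and 4 lower, which is 28.6% beside 30.7% of all genes (12.8% higher and 17.8% lower). Of the members called in the 2 comparisons, 8 were common to both, and all 8 moved in the same direction. JMJD6, KDM3A, KDM2A, P4HA1 and ASPH were higher, and OGFOD2, EGLN2 and PLOD3 were lower. The same count was not made over all genes, so it is not shown to be particular to the members. Across the 42 members the log2 changes of the 2 comparisons had a Pearson correlation of 0.73, and 34 members (81%) had the same sign. Over all 12540 genes the correlation was 0.68, with 74.6% of the same sign, so the members were close to the whole transcriptome in this. These correlations are across genes from 1 fit, and genes are not independent replicates.

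**Figure D2:**
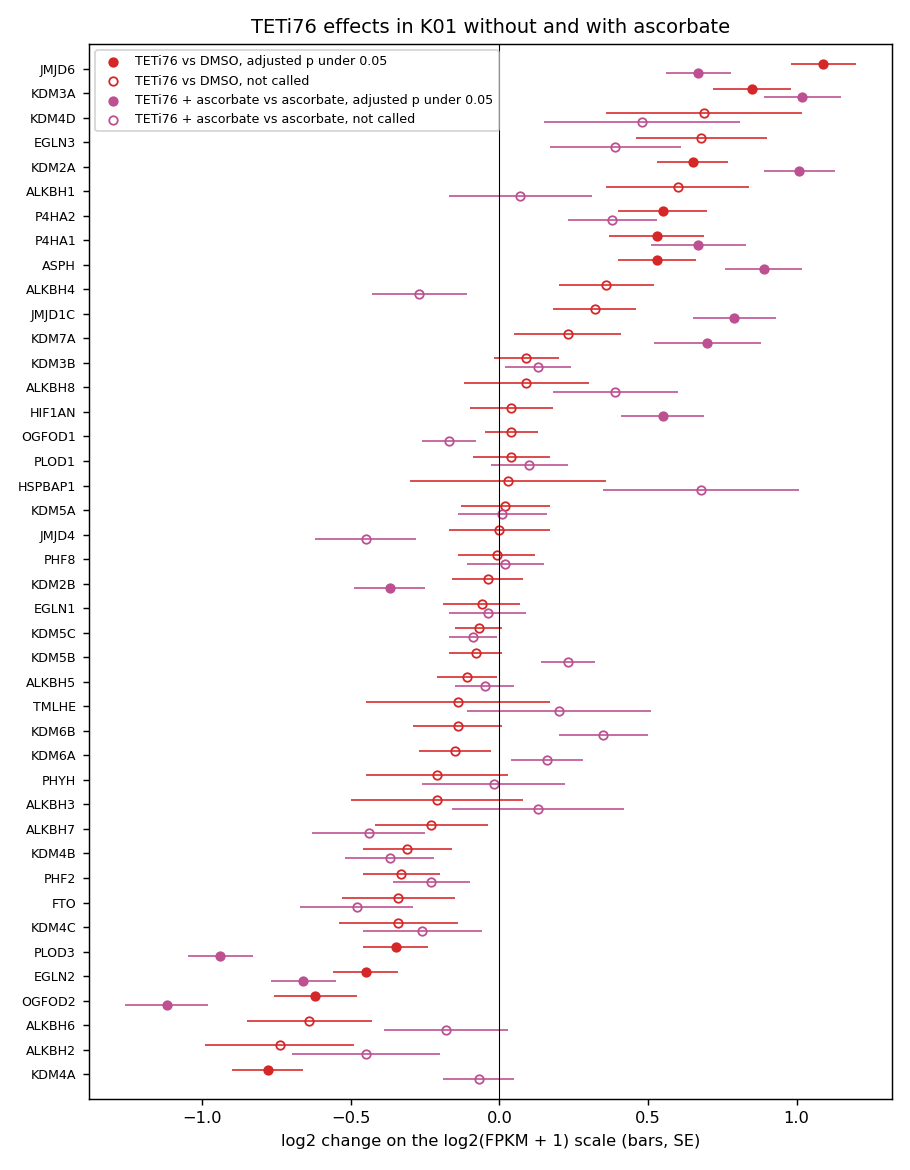
Log2 change (x axis, log2(FPKM + 1) scale, bars SE) of the 42 tested members in K01 for TETi76 against DMSO and for TETi76 with ascorbate against ascorbate, 2 libraries a group; filled points have an adjusted p under 0.05. JMJD6 heads the list at 1.09 and KDM4A ends it at -0.78 without ascorbate, while KDM4A lies at -0.07 with ascorbate in both arms.

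The stretches before the starts of KDM3A, KDM2A and P4HA1, which rose, and of KDM4A, which fell, are shown because these members moved with the compound and 2 of them are textbook hypoxia-responsive genes. Each is the 250 bases before the gene's start in RefSeq (GRCh38.p14), 5′ to 3′ on the gene's strand, with the hypoxia response core (ACGTG or GCGTG, either strand) in capitals. They lie at chr2:86441121-86441370 (plus strand, KDM3A), chr11:67119013-67119262 (plus, KDM2A), chr10:73096867-73097116 (minus, P4HA1) and chr1:43649899-43650148 (plus, KDM4A).
KDM3A: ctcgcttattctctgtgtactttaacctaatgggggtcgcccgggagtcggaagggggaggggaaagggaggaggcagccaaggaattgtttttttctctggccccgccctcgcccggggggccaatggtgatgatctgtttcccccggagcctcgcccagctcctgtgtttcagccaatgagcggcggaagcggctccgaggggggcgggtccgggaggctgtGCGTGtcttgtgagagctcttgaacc
KDM2A: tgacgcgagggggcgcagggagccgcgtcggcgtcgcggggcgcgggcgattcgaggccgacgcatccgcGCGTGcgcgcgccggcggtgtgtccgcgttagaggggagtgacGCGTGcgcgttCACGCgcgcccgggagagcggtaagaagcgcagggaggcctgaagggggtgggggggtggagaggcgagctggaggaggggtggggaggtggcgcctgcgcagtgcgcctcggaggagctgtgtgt
P4HA1: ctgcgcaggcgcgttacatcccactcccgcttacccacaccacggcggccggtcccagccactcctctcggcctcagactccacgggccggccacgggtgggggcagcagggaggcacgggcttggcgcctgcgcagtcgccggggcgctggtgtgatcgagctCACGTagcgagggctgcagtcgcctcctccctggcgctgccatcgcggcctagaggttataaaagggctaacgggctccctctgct
KDM4A: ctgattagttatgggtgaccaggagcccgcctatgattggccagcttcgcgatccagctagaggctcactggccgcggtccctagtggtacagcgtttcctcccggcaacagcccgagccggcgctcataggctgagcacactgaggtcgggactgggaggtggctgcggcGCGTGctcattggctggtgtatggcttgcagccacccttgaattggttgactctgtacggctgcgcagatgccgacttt
KDM3A, KDM2A and KDM4A carry GCGTG and P4HA1 carries ACGTG, in the last case read on the opposite strand. KDM2A carries GCGTG on both strands, the match on the opposite strand being printed as CACGC. A promoter entry existed for 42 of 44 members, JMJD6 and ASPH having none. Either core occurred in the 250 bases before the start in 25 of 42 members (59.5%), with the first entry taken for each. It occurred in 43.2% of all 35116 promoter entries. Those hold several for some genes and are not limited to expressed genes, so the shares are not like for like. The bases after the start were found in an annotated transcript for 38 of the 42 members, but not for PLOD2, KDM6B and ALKBH5, which carry a core. Either core also occurred in 4 of 7 members with an entry that rose with TETi76 in either comparison. The core TGACNNNGC of the antioxidant response element occurred in 3 of 42 members and in 10.9% of all promoter entries, and in 0 of those 7. A match is a description of letters and not of a bound site.

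Among the JmjC histone demethylases, 2 rose and 1 fell of 17 with TETi76 against DMSO, and 4 rose and 1 fell with ascorbate in both arms. These are 17.6% beside 23.3% of all genes and 29.4% beside 30.7%, so the family was called no more often than other genes. KDM3A, which removes mono- and dimethyl marks from H3K9 and is a known hypoxia-induced gene, had 24.2 and 25.6 FPKM with TETi76 and ascorbate, 20.4 and 20.9 FPKM with TETi76, 10.0 and 13.8 FPKM with ascorbate, and 11.2 and 10.9 FPKM with DMSO. All 4 libraries with TETi76 lay above all 4 without it. The log2 change was 0.85 ± 0.13 against DMSO (SE, adjusted p = 0.00219) and 1.02 ± 0.13 with ascorbate in both arms (adjusted p = 0.000537).

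KDM2A, an H3K36 demethylase with a zinc finger that binds unmethylated CpG islands, followed the same pattern. It had 22.9 and 25.6 FPKM with TETi76 and ascorbate, 20.1 and 18.9 FPKM with TETi76, 11.9 and 11.1 FPKM with ascorbate, and 10.7 and 13.7 FPKM with DMSO. The libraries with and without TETi76 did not overlap, and the log2 change was 0.65 ± 0.12 (adjusted p = 0.00585) without and 1.01 ± 0.12 (adjusted p = 0.000376) with ascorbate. Its close relative KDM2B, also a CpG island binder and a subunit of a Polycomb complex, did not share this. KDM2B had 9.68 and 8.34 FPKM with TETi76 and ascorbate against 12.5 and 11.3 FPKM with ascorbate, a log2 change of -0.37 ± 0.12 (adjusted p = 0.046), and 9.44 and 10.2 FPKM with TETi76 against 10.4 and 9.85 FPKM with DMSO (log2 change -0.04 ± 0.12, adjusted p = 0.843). The KDM2B call was lost in 7 of 10 alternatives, with adjusted p up to 0.206.

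JMJD1C, a KDM3 family member, and KDM7A, which acts on H3K9 and H3K27, rose in the comparison with ascorbate. JMJD1C had 18 and 17.1 FPKM with TETi76 and ascorbate and 9.07 and 10.5 FPKM with ascorbate (log2 change 0.79 ± 0.14, adjusted p = 0.00242). Without ascorbate it had 15.6 and 15.7 FPKM with TETi76 and 11.1 and 13.7 FPKM with DMSO, groups that do not overlap but a change that was not called (0.32 ± 0.14, adjusted p = 0.119). KDM7A was the scarcest of the called members, with 4.07 and 4.97 FPKM with TETi76 and ascorbate and 2.46 and 2.31 FPKM with ascorbate (0.70 ± 0.18, adjusted p = 0.0153). Its levels with TETi76 (3.67 and 4.47 FPKM) and with DMSO (3.48 and 3.13 FPKM) differed by 0.23 ± 0.18 (adjusted p = 0.385). The KDM7A call needs replicate 2 of both groups, with adjusted p = 0.0641 without that of ascorbate and 0.0846 without that of TETi76 and ascorbate. For neither gene was the difference between the 2 TETi76 effects itself called (adjusted p = 0.34 and 0.463).

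KDM4A, which demethylates trimethylated H3K9 and H3K36, was the demethylase that fell. It had 14.1 and 17.1 FPKM with TETi76 and ascorbate, 12.7 and 13.5 FPKM with TETi76, 16.8 and 15.9 FPKM with ascorbate, and 21.4 and 25.2 FPKM with DMSO. The DMSO libraries stood above the other 6 of K01, and the 2 ascorbate libraries lay within the range of those with TETi76 and ascorbate. The log2 change with TETi76 was -0.78 ± 0.12 against DMSO (adjusted p = 0.00178) and -0.07 ± 0.12 with ascorbate in both arms (adjusted p = 0.721). The interaction term, which tests the difference between these effects, was 0.72 ± 0.17 with adjusted p = 0.113, the smallest of the members, and so was not called. Of the exonic bases of KDM4A, 46.4% are shared with a second annotated gene on the same strand in GENCODE v29 and 9.5% with KDM4A-AS1 on the opposite strand, and how the counting treated such reads is not given in the sources used here.

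The other 11 demethylases (KDM3B, KDM4B, KDM4C, KDM4D, KDM5A, KDM5B, KDM5C, KDM6A, KDM6B, PHF2 and PHF8) were called in neither TETi76 comparison in K01. KDM5C, the most abundant, had 38.4 and 35.3 FPKM with TETi76 and 39.9 and 37.3 FPKM with DMSO, overlapping groups whose log2 difference had a 95% interval of -0.25 to 0.12. KDM4D, a germline-enriched H3K9 demethylase, passed the filter only through TETi76-treated libraries, with at most 1.33 FPKM in any library. The H3K27 demethylases KDM6A and KDM6B lay at 8.08 to 10.3 FPKM and 4.98 to 7.63 FPKM over the 10 K562 libraries.

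JMJD6, a nuclear JmjC protein known to hydroxylate lysines of splicing factors, had the largest log2 change of the tested members with TETi76 against DMSO. It had 36.4 and 39.6 FPKM with TETi76 and ascorbate, 35.2 and 33.5 FPKM with TETi76, 24.8 and 22.2 FPKM with ascorbate, and 15.8 and 15.5 FPKM with DMSO. These 4 groups did not overlap, and their order put ascorbate alone between DMSO and TETi76. The log2 change with TETi76 was 1.09 ± 0.11 against DMSO (adjusted p = 0.000169, 2.12-fold on the log2(FPKM + 1) scale) and 0.67 ± 0.11 against ascorbate (adjusted p = 0.00186). With ascorbate alone it was 0.55 ± 0.11, which did not pass (adjusted p = 0.0852). HIF1AN, the asparaginyl hydroxylase that blocks the transactivation domain of HIF, had 7.74 and 7.67 FPKM with TETi76 and ascorbate and 4.81 and 5.06 FPKM with ascorbate, and rose by 0.55 ± 0.14 (adjusted p = 0.016). Without ascorbate its libraries overlapped, at 6.14 and 5.07 FPKM with TETi76 and 5.07 and 5.73 FPKM with DMSO. The HIF1AN call was lost without replicate 1 of ascorbate (adjusted p = 0.0677) and without either replicate of TETi76 and ascorbate (0.0589 and 0.0558). Neither JMJD4 nor HSPBAP1 was called.

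**Figure D3:**
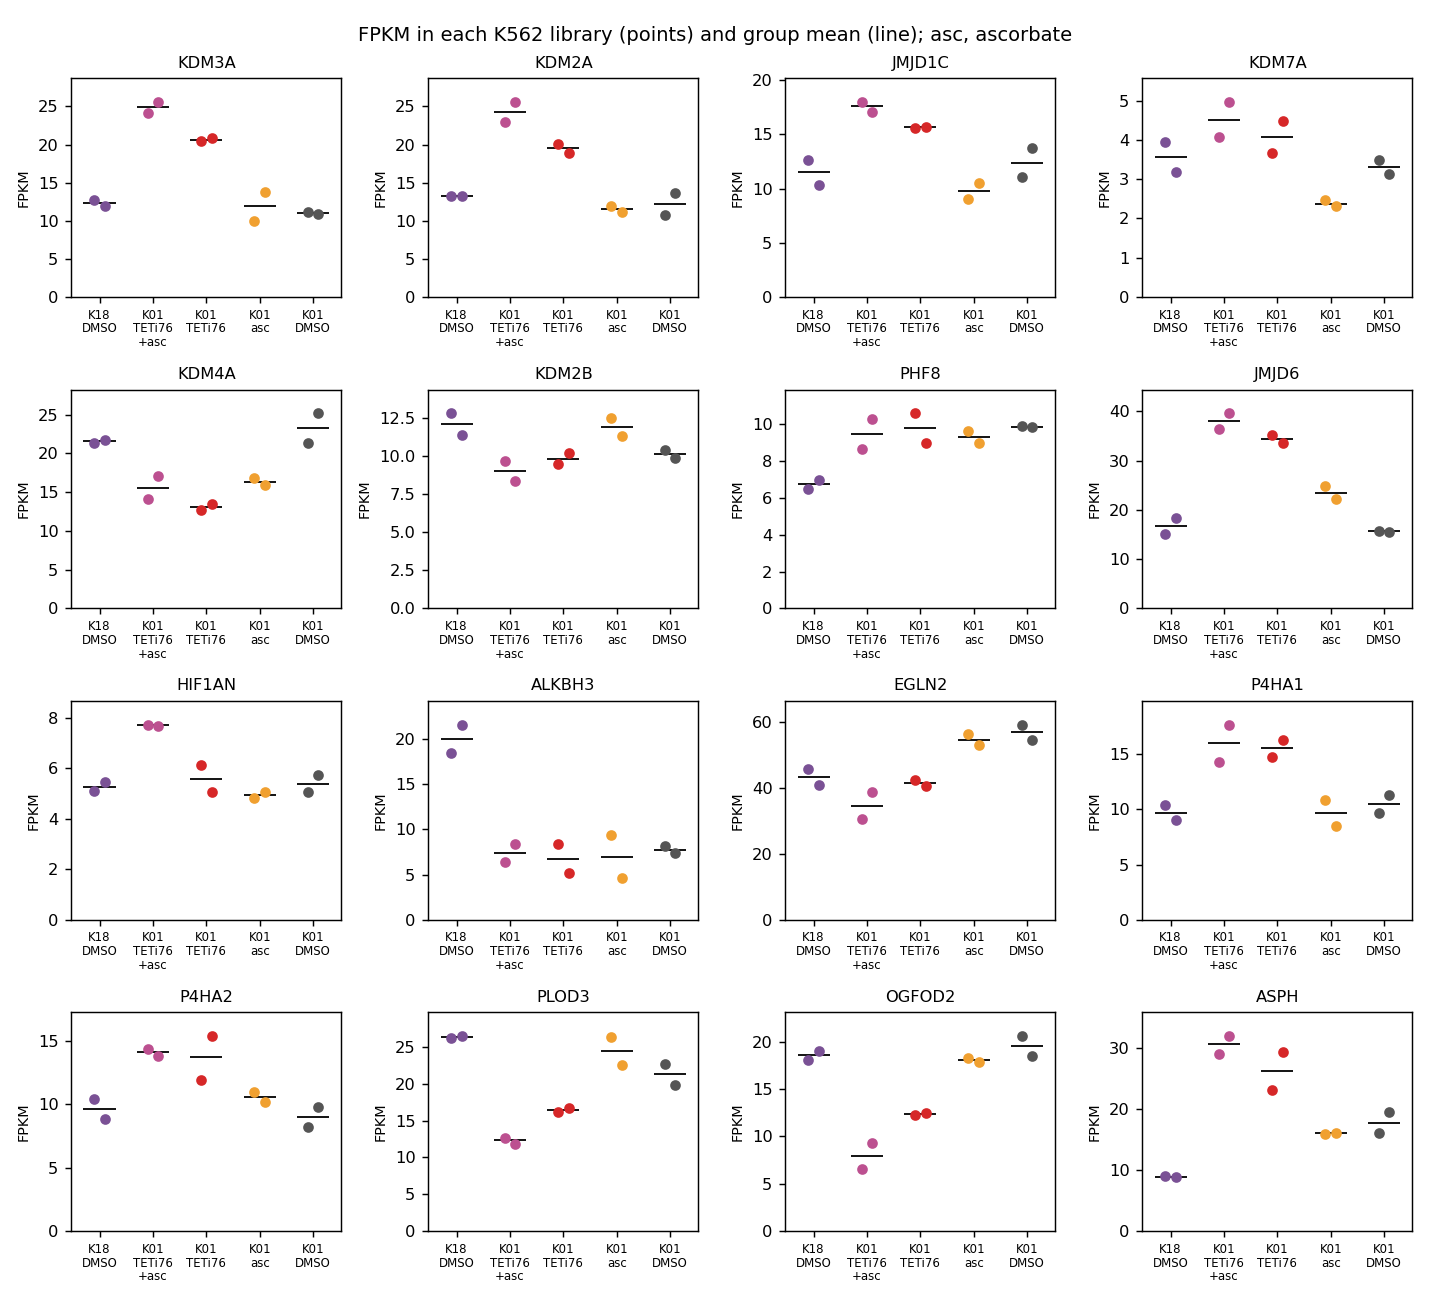
FPKM of the 16 members called in at least 1 comparison, in each of the 10 K562 libraries (points) with the group mean (line), y axes from 0. KDM3A, KDM2A, JMJD6 and P4HA1 are higher in all 4 libraries with TETi76 than in the 4 K01 libraries without it, and ALKBH3 is higher in both K18 libraries than in all 8 of K01.

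Of the AlkB family with FTO, 0 of 9 were called by limma in either TETi76 comparison in K01, with 4 at an unadjusted p under 0.05 against DMSO and 2 with ascorbate in both arms. Over all genes 23.3% and 30.7% were called, and 36% and 41% had an unadjusted p under 0.05. ALKBH5, the nuclear m6A demethylase, was after ALKBH2 the most abundant of the family in K01 with DMSO. It had 24.0 and 23 FPKM with TETi76 and 25.2 and 25.7 FPKM with DMSO, with a 95% interval of -0.33 to 0.11 for the log2 difference. ALKBH2, which repairs alkylated bases in DNA, had 19.4 and 12.9 FPKM with TETi76 and 27.1 and 27.1 FPKM with DMSO, groups apart but with a wide spread (-0.74 ± 0.25, adjusted p = 0.0608). FTO had 5.10 and 3.65 FPKM with TETi76 and 5.61 and 5.84 FPKM with DMSO (-0.34 ± 0.19, adjusted p = 0.247). Against DMSO the SE ran from 0.10 for ALKBH5 to 0.29 for ALKBH3 in this family. Among the demethylases it ran from 0.08 for KDM5C to 0.33 for KDM4D. A change of the same size was less detectable where the SE was larger.

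Of the HIF prolyl hydroxylases, EGLN2 fell with TETi76. It had 30.4 and 38.6 FPKM with TETi76 and ascorbate, 42.3 and 40.6 FPKM with TETi76, 56.2 and 53.1 FPKM with ascorbate, and 59.2 and 54.6 FPKM with DMSO. All 4 libraries with TETi76 were below all 4 without it. The log2 change was -0.45 ± 0.11 (adjusted p = 0.0192) without and -0.66 ± 0.11 (adjusted p = 0.00227) with ascorbate, and the first call was lost when any 1 of its 4 libraries was left out (adjusted p from 0.0524 to 0.112). EGLN2 shares 66.6% of its exonic bases with the readthrough gene RAB4B-EGLN2 on the same strand. That gene was listed at 8.91 and 0 FPKM with TETi76 and ascorbate, at 1.33 and 0 FPKM with TETi76, and below 0.002 FPKM in the other 6 K562 libraries, so the 2 libraries in which it took reads are both TETi76 libraries and the EGLN2 value is uncertain by the reads assigned to it. In replicate 1 of TETi76 and ascorbate, the lowest EGLN2 library, this came to about 121 reads at the estimated depth.

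EGLN1, the main HIF prolyl hydroxylase of most cells, had 6.77 and 7.61 FPKM with TETi76 and 7.20 and 7.84 FPKM with DMSO, and its log2 change had a 95% interval of -0.35 to 0.24. EGLN3, the most hypoxia-inducible of the 3 in many cells, had 11.5 and 8.85 FPKM with TETi76 and 7.87 and 4.39 FPKM with DMSO. Those groups did not overlap, yet the difference of 0.68 ± 0.22 did not pass (adjusted p = 0.0553).

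Of the collagen-type hydroxylases, 4 were tested in K01, of which 2 prolyl hydroxylases rose and 1 lysyl hydroxylase fell against DMSO. That is 75%, beside 23.3% of all genes. With ascorbate in both arms 1 rose and 1 fell of the 4 (50%, beside 30.7% of all genes). P4HA1 and P4HA2 are the catalytic subunits of the 2 main collagen prolyl hydroxylases, and PLOD3 hydroxylates and glycosylates collagen lysines. P4HA1 had 14.3 and 17.7 FPKM with TETi76 and ascorbate, 14.8 and 16.3 FPKM with TETi76, 10.9 and 8.49 FPKM with ascorbate, and 9.66 and 11.3 FPKM with DMSO. The libraries with and without TETi76 did not overlap, and the log2 change was 0.53 ± 0.16 (adjusted p = 0.0364) without and 0.67 ± 0.16 (adjusted p = 0.011) with ascorbate. The call against DMSO was lost when any 1 of its 4 libraries was left out, with adjusted p from 0.0689 to 0.185. The call with ascorbate was lost without replicate 2 of ascorbate (0.075) and without replicate 2 of TETi76 with ascorbate (0.0701). P4HA2 had 14.4 and 13.8 FPKM with TETi76 and ascorbate, 11.9 and 15.4 FPKM with TETi76, 11 and 10.2 FPKM with ascorbate, and 8.18 and 9.77 FPKM with DMSO. It rose by 0.55 ± 0.15 against DMSO (adjusted p = 0.0253), a call lost without replicate 1 of DMSO (0.15) or replicate 2 of TETi76 (0.157), and with ascorbate in both arms the change was 0.38 ± 0.15 (adjusted p = 0.077).

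PLOD3 moved the other way. It had 12.7 and 11.8 FPKM with TETi76 and ascorbate, 16.2 and 16.7 FPKM with TETi76, 26.3 and 22.6 FPKM with ascorbate, and 22.7 and 19.9 FPKM with DMSO. The libraries with TETi76 were below those without it, and among them those with ascorbate were lowest. The log2 change was -0.94 ± 0.11 with ascorbate in both arms (adjusted p = 0.000234) and -0.35 ± 0.11 against DMSO (adjusted p = 0.0423). The second was lost without any 1 of its 4 libraries, with adjusted p from 0.0587 to 0.229, and the interaction was not called (-0.58 ± 0.15, adjusted p = 0.151). PLOD1, more abundant, had 37.9 and 32.9 FPKM with TETi76 and 36.7 and 31.8 FPKM with DMSO, which overlap.

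OGFOD2, a member of unknown substrate, fell in both comparisons, and ASPH, which hydroxylates epidermal growth factor-like domains, rose in both. OGFOD2 had 6.51 and 9.27 FPKM with TETi76 and ascorbate, 12.2 and 12.5 FPKM with TETi76, 18.3 and 17.8 FPKM with ascorbate, and 20.6 and 18.5 FPKM with DMSO. The log2 change was -1.12 ± 0.14 (adjusted p = 0.000456) with and -0.62 ± 0.14 (adjusted p = 0.0137) without ascorbate, the second lost without replicate 1 of DMSO (0.09) or either replicate of TETi76 (0.0655 and 0.0559). OGFOD2 and ARL6IP4 are separated by 16 bases on the same strand in GENCODE v29, and another annotated transcript spans exons of both genes. ARL6IP4 had 33.9 and 40.4 FPKM with TETi76 and ascorbate, 34.1 and 36.9 FPKM with TETi76, 91.0 and 79.4 FPKM with ascorbate, and 89.7 and 82.2 FPKM with DMSO. Its change against DMSO was -1.25 ± 0.10 (adjusted p = 4.34e-05), larger than that of OGFOD2, and the part of shared reads in the OGFOD2 values was not tested.

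ASPH had 29.1 and 32.0 FPKM with TETi76 and ascorbate, 23.1 and 29.3 FPKM with TETi76, 15.9 and 16.1 FPKM with ascorbate, and 16.0 and 19.6 FPKM with DMSO. The libraries with and without TETi76 did not overlap, and the log2 change was 0.89 ± 0.13 (adjusted p = 0.00114) with and 0.53 ± 0.13 (adjusted p = 0.0206) without ascorbate. The second was lost without replicate 1 of DMSO (0.138) or replicate 2 of TETi76 (0.131). OGFOD1, PHYH, the peroxisomal phytanoyl-CoA hydroxylase, and TMLHE, the first enzyme of carnitine synthesis, were not called.

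Ascorbate, a cofactor of several of these enzymes, was compared with DMSO in K01. Limma called 0 of 42 members, with 3 at an unadjusted p under 0.05, and over all genes 0.478% were called and 12% had such a p. The 3 were JMJD6 (0.55, above), KDM4A (-0.48 ± 0.12, adjusted p = 0.162) and JMJD1C (-0.31 ± 0.14, adjusted p = 0.403). When ascorbate was added to TETi76, limma again called 0 of 42 members, with 6 at an unadjusted p under 0.05, while 0.734% of all genes were called and 14.6% had such a p. The smallest adjusted p of the members was that of OGFOD2 (-0.61 ± 0.14, adjusted p = 0.0985). The interaction of TETi76 and ascorbate was called for 0 members, with 9 at an unadjusted p under 0.05, while 0.63% of all genes were called and 13.7% had such a p, so a different TETi76 effect with ascorbate was not shown for any member. These contrasts share libraries with those above and are not separate evidence.

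In SIGM5 no member passed the test. Of the 44 members 41 were tested there, EGLN2, EGLN3 and PLOD2 being too scarce. EGLN2, the most abundant member in K562, had 6 and 6 raw counts with TETi76 and 5 and 7 with DMSO, but its neighbour RAB4B had 0 counts in all 4 libraries and RAB4B-EGLN2 is not a row of that table, so the EGLN2 level in SIGM5 is uncertain. EGLN3 had 1 and 1 counts with TETi76 and 0 and 0 with DMSO. P4HTM, at most 0.152 FPKM in any K562 library, was tested in SIGM5, with 7.91 and 9.52 CPM with TETi76 and 7.46 and 8.51 CPM with DMSO. With TETi76 against DMSO, edgeR's quasi-likelihood test called 0 of 41 members, where 4.13% of 11340 genes were called, and DESeq2 also called 0. At an unadjusted p under 0.05, edgeR had 4 members, beside 16.7% of all genes, and DESeq2 had 3. With either replicate of SIGM5 DMSO left out, at least 1 member was called, and more of all genes were called too.

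The 4 were ALKBH2, KDM6B, PLOD1 and KDM7A. ALKBH2 had 17.6 and 17.2 CPM with TETi76 and 22.4 and 25.1 CPM with DMSO (log2 change -0.45 ± 0.14, adjusted p = 0.0684). KDM6B, an H3K27 demethylase induced in activated macrophages, had 50.1 and 53.5 CPM with TETi76 and 42.6 and 36.9 CPM with DMSO (0.38 ± 0.12, adjusted p = 0.085). Neither pair of groups overlapped, and neither passed. Of the members called in K01, KDM3A here had 51.0 and 46.2 CPM with TETi76 and 50.1 and 45.9 CPM with DMSO, a log2 change with a 95% interval of -0.23 to 0.27, and KDM4A had 50 and 51.9 CPM with TETi76 and 56.5 and 51.5 CPM with DMSO.

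JMJD6 in SIGM5 had 43.3 and 51.6 CPM with TETi76 and 39.8 and 40.3 CPM with DMSO, groups apart whose difference of 0.24 ± 0.12 did not pass (edgeR adjusted p = 0.338). KDM2A had 181 and 187 CPM with TETi76 and 175 and 167 CPM with DMSO (0.11 ± 0.10, edgeR adjusted p = 0.679). ASPH had 32.2 and 32.2 CPM with TETi76 and 34.3 and 34.0 CPM with DMSO (-0.09 ± 0.12, edgeR adjusted p = 0.8). The groups of KDM2A and ASPH were also apart, by small steps. JMJD1C had 50 and 46.6 CPM with TETi76 and 40.2 and 42.0 CPM with DMSO, and OGFOD2 had 28.7 and 32.0 CPM with TETi76 and 35.8 and 35.1 CPM with DMSO, both without overlap and uncalled. With 2 libraries a group, groups often lie apart without any change, in this and the other comparisons. The share of all genes whose groups lay apart was not counted.

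For the other members called in K562, apart from the untested EGLN2, the SIGM5 groups overlapped. KDM7A had 14.1 and 10.1 CPM with TETi76 and 7.62 and 10.4 CPM with DMSO, and KDM2B had 188 and 196 CPM with TETi76 and 207 and 186 CPM with DMSO. PHF8 had 56.1 and 58.5 CPM with TETi76 and 58.7 and 52.4 CPM with DMSO, and HIF1AN averaged 102 ± 0.708 CPM with TETi76 and 96.1 ± 8.05 CPM with DMSO (SD, n = 2 each). ALKBH3, higher in K18 than in K01, had 21.0 and 22.1 CPM with TETi76 and 23 and 21.4 CPM with DMSO. The collagen-type hydroxylases overlapped too. P4HA1 had 57.3 and 51.5 CPM with TETi76 and 49.7 and 54.6 CPM with DMSO, and P4HA2 had 3.93 and 5.39 CPM with TETi76 and 4.67 and 3.67 CPM with DMSO. PLOD3 had 51.1 and 57.5 CPM with TETi76 and 54.8 and 50 CPM with DMSO.

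The TETi76 effect in K01 minus that in SIGM5 was then tested over 9739 genes with both effects. It was called for 5 of 40 members, which is 12.5% beside 12% of all genes (4.91% higher and 7.13% lower). JMJD6 (0.84 ± 0.17, adjusted p = 0.000866), KDM3A (0.83 ± 0.18, adjusted p = 0.0031), ASPH (0.61 ± 0.18, adjusted p = 0.0275) and KDM2A (0.54 ± 0.16, adjusted p = 0.0315) had the higher effect in K01. KDM4A had the lower one (-0.70 ± 0.17, adjusted p = 0.00612). The count fell without either replicate of SIGM5 TETi76 and with any 1 of the K01 libraries left out, as did that over all genes. JMJD6 and KDM3A were called in all 10 alternatives. KDM2A was called in 4 of 10, its adjusted p reaching 0.185, and was lost without either replicate of SIGM5 TETi76 or K01 TETi76 or without replicate 1 of K01 DMSO. ASPH was called in 6 of 10, its adjusted p reaching 0.159, and was lost without either replicate of SIGM5 TETi76, without replicate 1 of K01 DMSO or without replicate 2 of K01 TETi76. KDM4A was lost once, without replicate 2 of K01 DMSO (0.0556). The lines differ in culture medium, table, unit and test, which cannot be told apart from the line. Across the 40 members the effects in K01 and SIGM5 had a Pearson correlation of 0.43 with 62.5% of the same sign, against 0.27 and 60% over all genes tested in both.

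**Figure D4:**
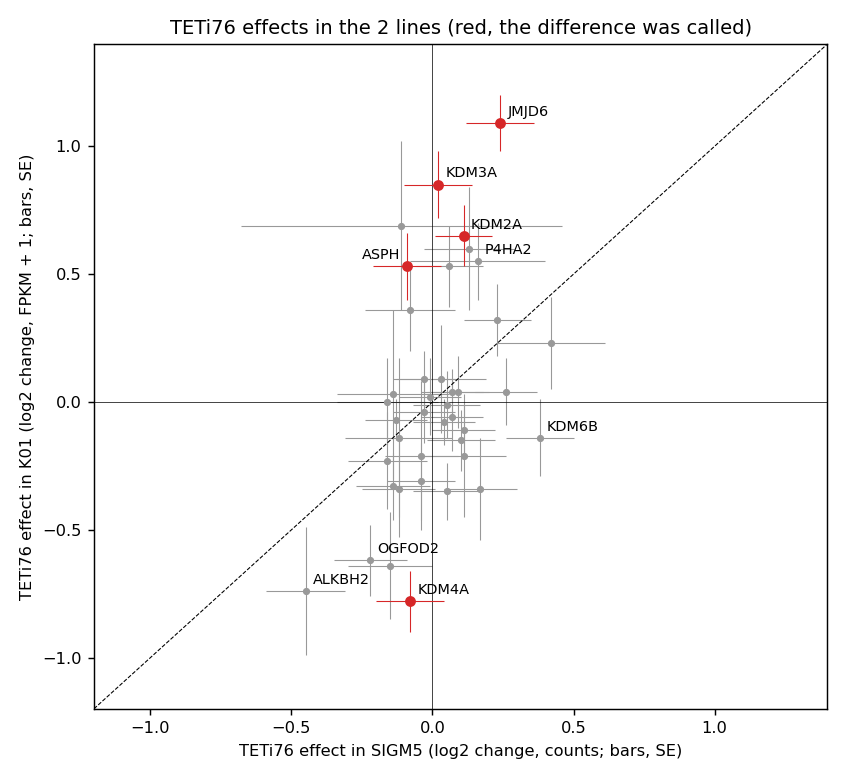
TETi76 effect in K01 (y axis, log2 change on the FPKM + 1 scale) against that in SIGM5 (x axis, log2 change of counts) for the 40 members tested in both lines, bars SE; red marks the 5 whose difference was called and the dashed line is equality. The effects spread from -0.78 to 1.09 in K01 and from -0.45 to 0.42 in SIGM5.

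K18 was compared with K01, both with DMSO, to ask how the members differ in the line labelled TET2-/-. Of 42 members 4 were called, 1 higher and 3 lower, which is 9.52% beside 15.1% of all genes (6.86% higher and 8.21% lower). ALKBH3, which removes methyl groups from adenine and cytosine in single-stranded DNA and RNA, was higher in K18. It had 18.5 and 21.6 FPKM in K18 and 8.13 and 7.39 FPKM in K01 (log2 difference 1.26 ± 0.29, adjusted p = 0.0186). ASPH was lower, with 9.07 and 8.81 FPKM in K18 and 16.0 and 19.6 FPKM in K01 (-0.91 ± 0.13, adjusted p = 0.00211). The K18 libraries of ALKBH3 stood above, and those of ASPH below, all 8 libraries of K01.

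PHF8, a demethylase of H3K9 and H4K20, had 6.49 and 6.96 FPKM in K18 and 9.90 and 9.84 FPKM in K01 (-0.49 ± 0.13, adjusted p = 0.0336). EGLN2 had 45.8 and 41.0 FPKM in K18 and 59.2 and 54.6 FPKM in K01 (-0.38 ± 0.11, adjusted p = 0.0486). Both pairs of groups were apart. With 1 library left out, ASPH was called every time, while ALKBH3 (adjusted p from 0.0679 to 0.12), PHF8 (0.118 to 0.168) and EGLN2 (0.0924 to 0.257) were not called in any of the 4. The number of members called fell with any 1 of these libraries left out, and so did that over all genes. RAB4B, whose exons the readthrough gene joins to those of EGLN2, had 7.08 and 8.04 FPKM in K18 and 18.6 and 15.5 FPKM in K01 (-1.07 ± 0.20, adjusted p = 0.00718). This comparison shares its K01 DMSO libraries with that of TETi76 against DMSO, in which ASPH had a change of 0.53 and ALKBH3 one of -0.21 ± 0.29. The summed FPKM of the 10 erythroid markers was 4000 and 3830 in K18 and 7440 and 8680 in K01, and its part in these differences was not tested.

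**Figure D5:**
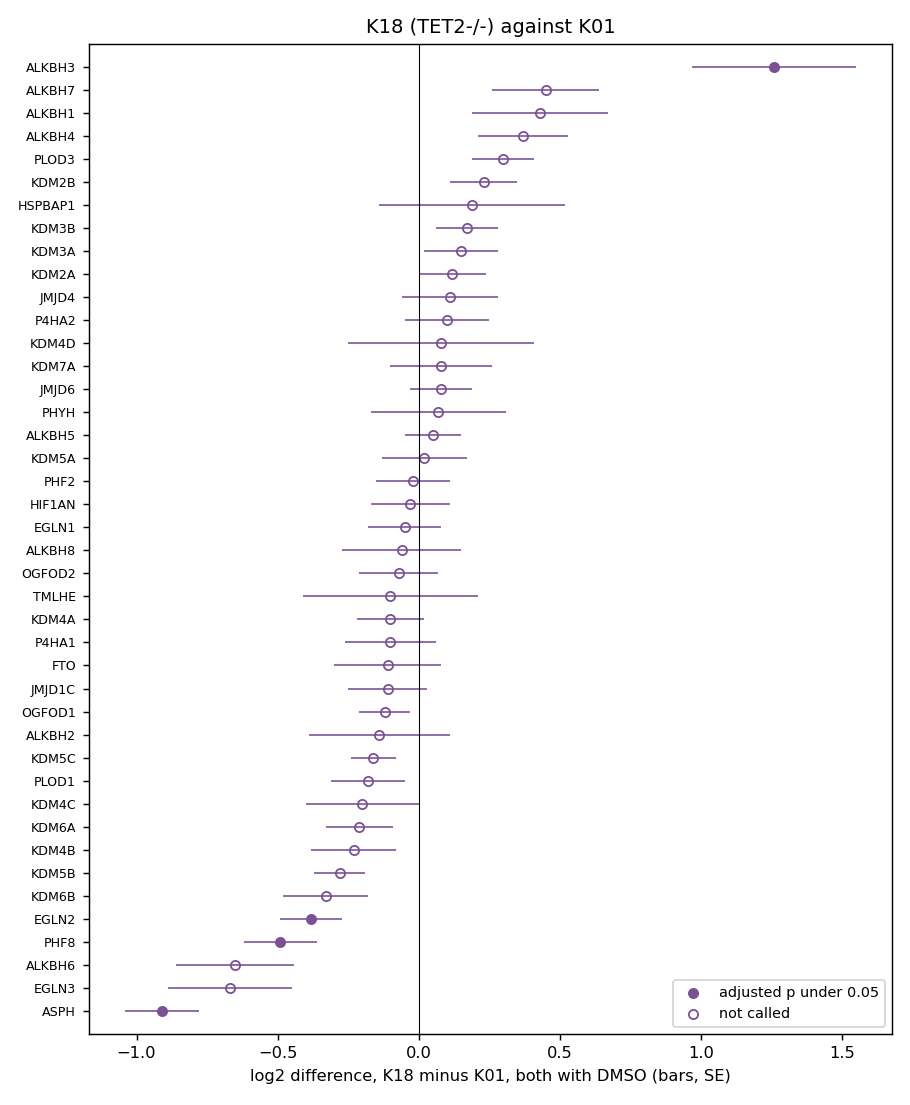
Log2 difference of the 42 tested members in K18 minus K01, both with DMSO and 2 libraries each (bars SE, filled points adjusted p under 0.05). ALKBH3 is the highest at 1.26 and ASPH the lowest at -0.91.

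Genes around the members in the same pathways were described from fixed lists. Of the 8 members known as hypoxia-induced, 7 were tested in K01 with TETi76 against DMSO, and 3 (KDM3A, P4HA1, P4HA2) were higher and 0 lower. That is 42.9%, beside 23.3% of all genes, and the median log2 change of the 7 was 0.53, beside -0.01 over all genes. The count was 1 without replicate 2 of K01 TETi76. With ascorbate in both arms 2 of 7 were higher and 0 lower, or 28.6% beside 30.7% of all genes, and 1 was higher without replicate 2 of either group. HIF target genes outside the set were mixed: of 18 tested, 4 were higher and 2 lower, a share of 33.3% beside 23.3% of all genes. With ascorbate in both arms 3 were higher and 3 lower, again 33.3%, beside 30.7%. VEGFA, the endothelial growth factor, had 20.8 and 21.3 FPKM with TETi76 and 60.5 and 51.5 FPKM with DMSO and fell (-1.37 ± 0.11, adjusted p = 3.66e-05). NDRG1, a stress-induced growth inhibitor, had 4.35 and 5.31 FPKM with TETi76 and 0.338 and 0.640 FPKM with DMSO and rose (1.97 ± 0.23, adjusted p = 0.000445). BHLHE40, a transcriptional repressor, had 73.0 and 68.0 FPKM with TETi76 and 39.0 and 34.3 FPKM with DMSO and also rose (0.93 ± 0.08, adjusted p = 7.21e-05). These targets thus differed in sign, and the higher count was 2 without replicate 2 of either group.

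Among the HIF factors and their regulators, 1 was higher and 3 were lower of 7, or 57.1% beside 23.3% of all genes. With ascorbate in both arms 1 was higher and 2 were lower, or 42.9% beside 30.7%, and 1 was lower without replicate 1 of ascorbate or either replicate of TETi76 with ascorbate. EPAS1, which encodes HIF-2α, had 8.32 and 9.55 FPKM with TETi76 and 3.62 and 3.60 FPKM with DMSO and rose (1.11 ± 0.15, adjusted p = 0.00108). VHL, whose product recognises hydroxylated HIF, had 28.9 and 34.0 FPKM with TETi76 and 46.1 and 51.1 FPKM with DMSO and fell (-0.61 ± 0.10, adjusted p = 0.00306). SIAH2, a ubiquitin ligase that acts on EGLN proteins, also fell (-0.60 ± 0.10, adjusted p = 0.00264), as did CITED2. In SIGM5, edgeR called 0 of 6 of these genes, with 2 at an unadjusted p under 0.05 and DESeq2 also calling 0. Over all genes edgeR called 4.13% there, and 16.7% had such a p. Of 18 HIF targets 1 was called in SIGM5, or 5.56% beside 4.13% of all genes. It was ADM, which encodes adrenomedullin, at 1.09 and 0.782 CPM with TETi76 and 0.0537 and 0.279 CPM with DMSO (2.39 ± 0.67, edgeR adjusted p = 0.0435), a call lost with DESeq2.

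The enzymes that oppose the JmjC demethylases, with the flavin-dependent demethylases, had 2 higher and 3 lower of 20 in K01 with TETi76 (25%, beside 23.3%), and 3 higher and 1 lower with ascorbate in both arms (20%, beside 30.7%). Without any 1 of its 4 libraries the higher count against DMSO was 1. The Polycomb methyltransferase EZH2 had 48.5 and 44.3 FPKM with TETi76 and 70.2 and 73.9 FPKM with DMSO (-0.63 ± 0.08, adjusted p = 0.000771). SETDB1, an H3K9 methyltransferase, fell (-0.56 ± 0.10, adjusted p = 0.00488), and KMT2D, an H3K4 methyltransferase, rose (0.52 ± 0.10, adjusted p = 0.0059). The writers and readers of m6A, the RNA mark that FTO and ALKBH5 remove, had 6 higher and 3 lower of 15, or 60% beside 23.3%, while FTO and ALKBH5 were not called. The readers YTHDF2 (64.1 and 65.7 FPKM with TETi76, 40.0 and 48.9 FPKM with DMSO) and YTHDF1 (23.9 and 24.7 FPKM with TETi76, 16.9 and 17.8 FPKM with DMSO) rose by 0.54 ± 0.09 and 0.46 ± 0.09 (adjusted p = 0.00305 and 0.00637). WTAP, a subunit of the m6A writer complex, had 78.1 and 85.5 FPKM with TETi76 and 64.5 and 64.9 FPKM with DMSO and rose as well (0.33 ± 0.07, adjusted p = 0.0103). The higher m6A genes numbered 3, 2, 3 and 3 without replicate 1 of DMSO, replicate 2 of DMSO, replicate 1 of TETi76 and replicate 2 of TETi76, and the lower ones 1, 0, 1 and 0. With ascorbate in both arms 6 were higher and 2 lower, or 53.3% beside 30.7%, with 4 higher without replicate 2 of either group, and 1 lower without replicate 2 of ascorbate or replicate 1 of TETi76 with ascorbate.

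Of the partners of the collagen hydroxylases in the endoplasmic reticulum, 1 was higher and 1 lower of 9, or 22.2% beside 23.3% of all genes. With ascorbate in both arms 3 were higher and 2 lower, or 55.6% beside 30.7%, and 1 was higher without replicate 1 of TETi76 with ascorbate. SERPINH1, the collagen chaperone, had 75.2 and 73.4 FPKM with TETi76 and 54.6 and 59.1 FPKM with DMSO (0.38 ± 0.07, adjusted p = 0.00394). COLGALT2, which adds galactose to the hydroxylysine that PLOD enzymes make, had 13 and 13.6 FPKM with TETi76 and 40.2 and 39.2 FPKM with DMSO and fell (-1.51 ± 0.11, adjusted p = 2.8e-05). COLGALT2 was also lower in K18, at 16.0 and 16.3 FPKM, against the same K01 libraries (-1.25 ± 0.11, adjusted p = 0.000176). Of 10 further tested 2-oxoglutarate oxygenases outside the set and TET, JMJD8 alone was called with TETi76 (-0.32 ± 0.10, adjusted p = 0.049). That is 10%, beside 23.3% of all genes, and the call was lost in each of the 4 fits that leave out a library. P3H1, a collagen prolyl 3-hydroxylase, alone was called in K18 (-0.58 ± 0.14, adjusted p = 0.0214), or 10% beside 15.1% of all genes.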

How the data were processed

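Oligo(dT)-enriched RNA was sequenced per the labels' protocols. The submitters' processing notes name hg19, STAR, edgeR 3.24.3 and limma 3.38.3. The quantifier, strandedness and gene annotation are not given in the sources used here. The SIGM5 table holds raw counts per gene as deposited by the authors. The K562 table holds FPKM per gene as deposited by the authors, which are not whole reads, so no count test was run on it. CPM and log2 values were computed here from the deposited tables.

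SIGM5 counts were tested with edgeR 4.0.16 (TMM, filterByExpr, robust quasi-likelihood test, 11340 genes). For K562, limma 3.58.1 (with trend and robust settings) was fitted once to log2(FPKM + 1) over all 10 libraries, for the 12540 genes that reached 1 FPKM in 2 or more of them. The pseudocount of 1 understates changes of low genes. Of the K562 entries, 2244 for short RNAs and 26 with numeric names (at most 0.0657% of a library's FPKM sum) were left out. The TETi76 effects in the 2 lines were compared through their standard errors with Satterthwaite degrees of freedom. P-values are two-sided and were adjusted by Benjamini-Hochberg over every gene tested, with calls at 0.05. DESeq2 1.42.0 was an alternative in SIGM5, and R was 4.3.3. The fits were checked on simulated data only for a single size of change in well-expressed genes, with a common spread. That does not check smaller changes or genes with a larger spread.

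Members past the threshold in at least 1 comparison are given by library where the result turns on them, EGLN2 in SIGM5 as raw counts and HIF1AN there as group means. From each list of other genes, up to 3 of those called are named, by smallest adjusted p in the TETi76 and K18 comparisons. Uncalled members given as examples, CITED2, ARL6IP4, RAB4B and RAB4B-EGLN2 were chosen after their values were seen. The members and lists were chosen with earlier results of these data known. Exon overlaps come from GENCODE v29 (GRCh38) and promoters from RefSeq GRCh38.p14.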

Additional observations from a re-analysis of the deposited data

Results flagged for a closer look

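The effect of TETi76 differed between K01 and SIGM5 for 5 members, by the test of the difference itself. The effect in K01 minus that in SIGM5, on the log2 scale, was 0.84 for JMJD6, 0.83 for KDM3A, 0.61 for ASPH, 0.54 for KDM2A and -0.70 for KDM4A. JMJD6 and KDM3A were called in all 10 alternatives, KDM4A in 9, ASPH in 6 and KDM2A in 4. The effects come from different units and tests, FPKM with limma in K01 and counts with edgeR in SIGM5. Medium, table and line cannot be told apart. Groups of 2 libraries are too small for a check of single outlying libraries.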

How the results depend on the processing

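No called change of a member turned its direction under any alternative tried. In SIGM5 the number of members called was 0, but 2 with no filter on low counts and 0 to 2 with 1 library left out. In K01 with TETi76 against DMSO it was 10, and 4 to 7 with 1 library left out. With TETi76 and ascorbate against ascorbate it was 12, and 8 to 13. For K18 against K01 it was 4, and 1 to 2. For the difference between the lines it was 5, and 3 to 6. Ascorbate against DMSO, ascorbate added to TETi76, and the interaction had 0 called members under every alternative tried. Of the 31 called changes of members, leaving out a library kept 93 calls and lost 51, and the other alternatives kept 145 and lost 21. With 1 library left out, the calls over all genes moved as well, falling in every such fit of the K01 TETi76 and K18 comparisons. The cause of the lost calls was not tested.

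Libraries with the same replicate number did not deviate together, with correlations of -0.02 to 0.05 among the K562 groups and -0.16 in SIGM5. With the replicate block the members called numbered 0 in SIGM5, 10 and 12 in the TETi76 comparisons of K01, 3 in K18 and 4 for the difference between the lines. In SIGM5 the crossed replicate block, chosen after seeing the data, called 2 members and 1291 genes, against 444 genes with the numbers as given and 468 without a block. The estimated 4.88 to 9.09 M reads of the K562 libraries limit the scarce members, ALKBH3 having about 44.3 to 280 reads a library.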
